A study of Mus musculus with 4 samples.

Results

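The genes described here are Ddit4 and 9 other genes of the mTORC1 pathway: the inhibitor paralog Ddit4l, the complex subunits Mtor and Rptor, the inhibitor Deptor, the upstream regulators Tsc1, Tsc2 and Rheb, and the effectors Rps6kb1 and Eif4ebp1. Members were all probe sets whose single gene symbol in the array annotation is one of these 10 names, which gave 24 of the 45037 probe sets tested and covered 9 of the 18193 genes measured. Rps6kb1 had no such probe set and was not analysed here. The set was put together with results of this comparison known, since Ddit4 stood among the genes of lower signal in the knock-in hearts. The genotype differences of the members are therefore given as a description, and no p-value is printed for a member. Where members are counted at a p threshold, the counts stand beside those of all probe sets and are no test of the set.

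The arrays hold RNA from hearts of C57B6 mice aged 3.6 months at baseline, without treatment. There were 2 arrays of wild-type hearts and 2 of hearts with the GSK-3alpha S21A knock-in, which replaces by alanine the serine through which Akt and related kinases restrain GSK-3alpha. The labels do not give the sex or the number of altered alleles, and do not say whether an array holds 1 animal or a pool, so n counts arrays and any p-value measures only the spread between these arrays. Values are deposited RMA signals on the log2 scale, and every difference below is knock-in minus wild-type on that scale, so that a difference of 1 is a doubling of the signal.

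mTORC1 is a protein kinase complex that promotes protein synthesis and cell growth and restrains autophagy when growth factors, energy and amino acids are sufficient. Growth factors act through Akt, which inhibits the TSC1-TSC2 complex; that complex in turn keeps the small GTPase Rheb, the direct activator of mTORC1, in its inactive form. GSK-3 meets this pathway at TSC2, which it can phosphorylate, and Ddit4 protein (also called REDD1), made in response to stress, restrains mTORC1 through the TSC complex. In the heart mTORC1 takes part in growth of cardiomyocytes and in adaptation to load. The arrays measure transcripts only, and neither mTORC1 activity nor phosphorylation was measured.

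The arrays carried the transcripts of heart muscle: the median of 10 cardiomyocyte markers lay between 14.48 and 14.62 on the 4 arrays, against array medians of 6.14 to 6.23. Gsk3a itself had a mean of 11.12 ± 0.06 (SD, n = 2) in wild-type and 10.71 ± 0.13 (SD, n = 2) in knock-in hearts, and since the knock-in substitutes an amino acid, its transcript level is no check of the genotype. All 14 liver markers were higher in the knock-in arrays, by a median of 1.95 and at least 0.12. Their summed linear signal was 829 and 1226 in wild-type, 7635 in knock-in replicate 1 and 2952 in knock-in replicate 2. Of 8 fibroblast markers 8 were higher, by a median of 0.17, and of 8 endothelial markers 7 were, by a median of 0.19. Lymphocyte markers had a median of -0.21, and 6 of 7 were lower. Their median signal was only 6.07 to 6.69, close to the array medians, and the brightest, Ptprc, was higher by 0.14. Skeletal muscle markers, with median signals below the array medians, likewise had a median of -0.22 and 6 of 7 lower. Among 8 macrophage markers 7 were higher, with a median of 0.11. The 3 prime minus 5 prime log2 signal of the Gapdh control, a sign of RNA degradation, was 0.76 on knock-in replicate 2 and 0.54 to 0.62 on the other arrays. The part of these markers and of RNA quality in the list results below was not tested.

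Ddit4 had the largest difference of the members. It encodes the stress-induced inhibitor, and its only probe set read 11.38 and 11.62 on the wild-type arrays and 10.50 and 10.78 on the knock-in arrays. Both knock-in arrays thus lay below both wild-type arrays, and the lowest wild-type value exceeded the highest knock-in value by 0.60. The means were 11.50 ± 0.17 (SD, n = 2) and 10.64 ± 0.20 (SD, n = 2). They differed by -0.86 ± 0.14 (standard error; 95% interval -1.20 to -0.51), which by RMA values is a signal at 55.2% of wild-type. It was 3.10 times the larger of the gaps between arrays of 1 genotype, which were 0.24 in wild-type and 0.28 in knock-in hearts. Among 18193 genes, 7 had a lower difference than Ddit4. In RNA of whole hearts, fewer cells of a type and less RNA per cell cannot be told apart. The difference stayed between -0.99 and -0.72 when each array was left out in turn. Without knock-in replicate 1, the array with most liver signal, it was -0.72, and without knock-in replicate 2, the array with the higher Gapdh 3 prime excess, it was -0.99. Since the groups did not overlap, leaving out an array could not turn the sign. Both knock-in arrays held more liver signal than either wild-type array, so leaving out either does not remove it. The part of liver signal and of RNA quality in the Ddit4 difference was not tested.

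The transcription of Ddit4 is known to respond to hypoxia, glucocorticoids, DNA damage and amino acid shortage, and its proximal promoter is shown because it is the member the comparison turns on. The sequence is from RefSeq, build GRCm38.p6, chr10:59951771-59952020, minus strand, the 250 bases before the annotated start of the gene, read 5′ to 3′. Capitals mark the core of the hypoxia response element, ACGTG, searched on both strands.
Ddit4 promoter: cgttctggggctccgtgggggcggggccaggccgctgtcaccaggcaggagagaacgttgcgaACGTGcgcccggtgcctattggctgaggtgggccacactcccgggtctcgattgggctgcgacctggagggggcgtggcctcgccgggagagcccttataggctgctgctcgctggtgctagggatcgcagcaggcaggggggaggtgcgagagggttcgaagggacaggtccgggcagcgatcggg
The motif occurs once, at -187 to -183 from the start. Of 32851 promoter windows of this length, 16.6% held it on either strand. The core of the C/EBP-ATF response element, TGATGNAA, has no match in these 250 bases and occurs in 3.45% of all windows. Of the 8 members with a promoter in the table, Rheb and Rptor also held ACGTG in the 250 bases. Rheb, whose difference was 0.10, held a match on each strand, at -96 to -92 and -95 to -91, which overlap. These matches are letters in a window, and no binding was measured.

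Ddit4l encodes the paralog of Ddit4, which also restrains mTORC1. Its brightest probe set read 6.35 and 6.37 in wild-type and 6.58 and 6.48 in knock-in hearts, close to the array medians, where signal may hold much background. The groups did not overlap and the difference was 0.17 (95% interval -0.09 to 0.42), opposite in sign to that of Ddit4. The other Ddit4l probe sets differed by 0.00 and 0.05 and overlapped between genotypes. For Ddit4l the 3 probe sets thus show no common shift.

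**Figure D1:**
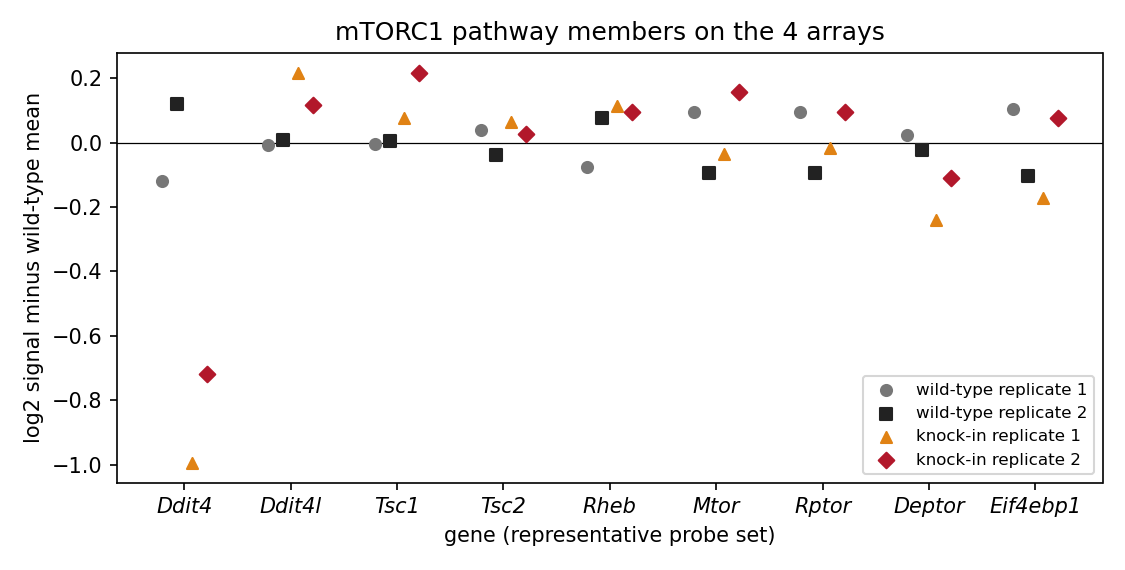
Log2 signal of each member's representative (brightest) probe set on each of the 4 arrays, after subtraction of the gene's wild-type mean; circles and squares are wild-type arrays, triangles and diamonds knock-in arrays. The Ddit4 knock-in values lie far below its wild-type values, whereas for the other genes all values lie within 0.25 of the wild-type mean.

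The TSC complex and Rheb, which stand between Akt and mTORC1, differed little. Tsc1 encodes the stabilising subunit of the complex, and its brightest probe set read 7.64 and 7.65 in wild-type and 7.72 and 7.86 in knock-in hearts. Both knock-in values were the higher ones, by a mean of 0.15 (95% interval -0.12 to 0.41), while the dimmer Tsc1 probe sets differed by -0.02 and -0.19. Tsc2, the subunit that acts on Rheb and the one that GSK-3 can phosphorylate, read 10.75 and 10.68 against 10.78 and 10.74. These values overlapped, with a difference of 0.04 (95% interval -0.21 to 0.30). Rheb read 12.42 and 12.57 in wild-type and 12.61 and 12.59 in knock-in hearts. Its knock-in arrays lay just above the higher wild-type array, with a difference of 0.10 (95% interval -0.16 to 0.37) that was smaller than the gap of 0.15 between the wild-type arrays.

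The subunits of the complex overlapped between genotypes by their brightest probe sets. Mtor, the kinase itself, read 9.90 and 9.72 in wild-type and 9.77 and 9.97 in knock-in hearts, a difference of 0.06 (95% interval -0.24 to 0.36). Rptor, the scaffold that brings substrates to the kinase, read 9.97 and 9.78 against 9.86 and 9.97, a difference of 0.04 (95% interval -0.25 to 0.33). On both genes the wild-type arrays lay 0.19 apart, farther than the genotypes. A dimmer Rptor probe set, below the array median on every array, read 5.89 and 5.77 in wild-type and 5.47 and 5.58 in knock-in hearts. Its difference of -0.31 (95% interval -0.58 to -0.04) was the largest in size of the 23 member probe sets other than Ddit4. The third Rptor probe set differed by -0.11, and the dimmer Mtor probe sets by -0.10 and -0.09.

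Deptor, which binds mTOR and inhibits it, was measured by 6 probe sets that differed in sign. The brightest read 9.22 and 9.17 in wild-type and 8.96 and 9.09 in knock-in hearts, so that both knock-in arrays were lower, by -0.17 (95% interval -0.44 to 0.09). The next brightest read 8.12 and 8.24 against 8.38 and 8.35, with both knock-in arrays higher, by 0.18 (95% interval -0.08 to 0.44). The other Deptor probe sets differed by 0.08, -0.25, 0.21 and -0.22. No direction can be given for the gene from these arrays.

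Of the effectors Rps6kb1 and Eif4ebp1, the second alone was measured. Its protein holds back the cap-binding translation factor eIF4E until mTORC1 phosphorylates it. The brightest probe set read 11.06 and 10.86 in wild-type and 10.79 and 11.03 in knock-in hearts, values that overlapped, with a difference of -0.05 (95% interval -0.37 to 0.28). A second, whose name marks probes that may bind other transcripts, read 10.51 and 10.47 against 10.58 and 10.74. Here both knock-in arrays were higher, by 0.17 (95% interval -0.10 to 0.44). The dimmest Eif4ebp1 probe set differed by 0.04.

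**Figure D2:**
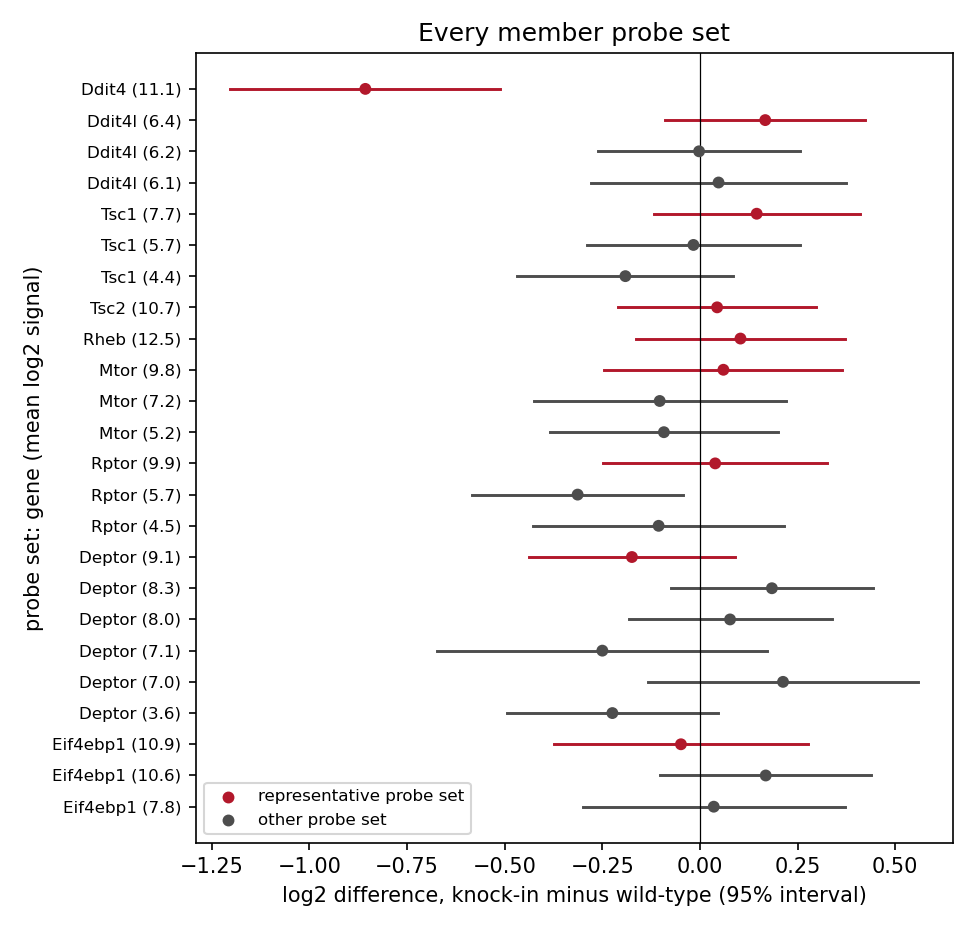
Log2 difference, knock-in minus wild-type, of each of the 24 member probe sets, with limma's 95% interval; labels give the gene and the mean log2 signal over the 4 arrays. The interval spans 0 for 22 probe sets, and those of Ddit4 (-0.86) and of 1 dim Rptor probe set (-0.31) lie below it. As Ddit4 was chosen from this contrast, the intervals are a description and not a test.

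Over the 24 member probe sets, 12 lay above 0 and 12 below, and the median difference was 0.02 against -0.04 over all probe sets. Among all probe sets with a mean log2 of at least 7 the median was 0.06. Each of the 6 genes with several probe sets had differences of both signs. The genotypes did not overlap for 10 member probe sets, 5 of them higher and 5 lower in the knock-in hearts. Among all probe sets the share was 45.2%, made up of 18.5% higher and 26.7% lower. At an adjusted p under 0.05 in limma's fit over all probe sets, 0 member probe sets were called, beside 0.00666% of all probe sets (2 of Cap1 and 1 of Cyp1a1). At an unadjusted p under 0.05, 0 were higher and 2 lower, beside 5.07% higher and 5.62% lower among all. The 2 were the probe set of Ddit4 and the dim one of Rptor. Ddit4 was chosen for its lower signal in this same contrast, so its place among these 2 is no evidence of a difference. The set was also put together with these results known, and nothing is read from these counts. By representative probe sets, 6 of 9 genes were higher and 3 lower. The sign was the same in all settings tried for Ddit4, Ddit4l, Rheb and Deptor, while it turned in 5 of 12 for Mtor and for Rptor, 4 of 12 for Eif4ebp1, 2 of 12 for Tsc2 and 1 of 12 for Tsc1. These totals include settings that cannot change a difference, such as another prior variance or the replicate number as a block.

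**Figure D3:**
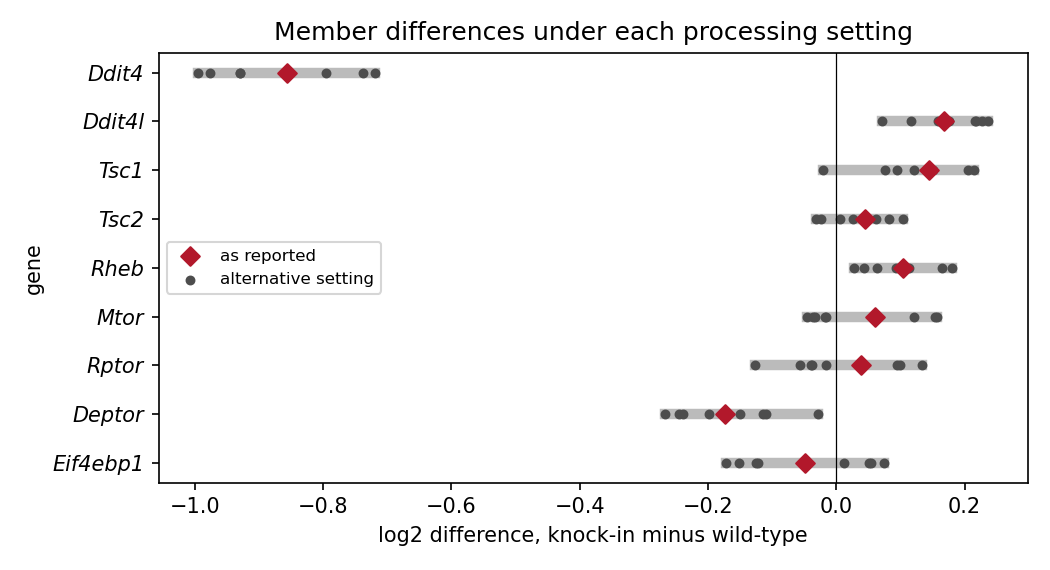
Log2 difference, knock-in minus wild-type, of each member's representative probe set as reported (diamond) and under each alternative setting (points, with a grey bar over their range). Ddit4 stays between -0.99 and -0.72, and no other member lies outside -0.27 to 0.24 under any setting.

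The genes whose pattern over the 4 arrays was most like that of Ddit4 were picked among 12317 genes by the smallest root mean square distance of log2 values, each gene centred on its own mean. They were 2210407C18Rik at a distance of 0.03, the cell cycle inhibitor gene Cdkn1a at 0.05, Mid1 at 0.08, the interferon-inducible GTPase gene Iigp1 at 0.12 and the cytochrome b5 gene Cyb5a at 0.12. Cdkn1a read 10.78 and 10.90 in wild-type and 9.89 and 10.12 in knock-in hearts. As with Ddit4, the first replicate was the lower one in both genotypes, which follows from picking genes by this likeness. With 4 arrays, such likeness is a description of these libraries.

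The rest of the pathway was read from lists of 69 further genes, of which 65 were measured. At an adjusted p under 0.05 (limma) 0 were higher and 0 lower, against 0.011% of all genes. At an unadjusted p under 0.05, 8 were higher and 1 lower, against 5.45% and 4.76% of all genes. Their median difference was 0.03, that of all genes -0.01. The difference between genotypes varied with brightness, and over all probe sets with a mean log2 of at least 7 the median was 0.06. That bright were 62 of the 65 genes, with a median of 0.03. The 0.06 is over probe sets and the 0.03 over genes. As a share of 65, the 8 higher genes exceed 5.45% and the 1 lower gene falls short of 4.76%. The share at that unadjusted p among features as bright was not taken. Neither the median nor the counts are read as a shift of the pathway. The liver markers were higher by a median of 1.95, and their part in the values of the pathway genes was not tested.

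Of 9 subunit and assembly genes of mTORC1 and mTORC2, 4 lay above 0 and 5 below, and the median of -0.03 turned sign in 7 of 12 settings. Rictor, the defining subunit of mTORC2, read 7.03 and 7.33 in wild-type and 7.57 and 7.83 in knock-in hearts. The groups did not overlap and differed by 0.52, without passing the test (limma adjusted p = 0.458), and 4 further probe sets ranged from -0.39 to 0.00. The mTORC2 gene Prr5l differed by -0.23 (limma adjusted p = 0.485) and the assembly factor gene Tti2 by 0.16 (limma adjusted p = 0.604). Other probe sets of both genes had the opposite sign.

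The amino acid branch brings mTORC1 to the lysosome through the Rag GTPases and their regulators. Above 0 lay 15 of its 27 measured genes and below it 12, and the sign of the median, 0.03, turned in 3 of 12 settings. Fnip1 and Flcn encode partners that act on the Rag GTPases. Fnip1 read 8.48 and 9.30 in wild-type and 9.90 and 9.66 in knock-in hearts. Its difference of 0.89 did not pass the test (limma adjusted p = 0.458), and its 2 further probe sets differed by -0.08 and 0.46. The wild-type arrays were 0.82 apart, and without wild-type replicate 1 the difference was 0.48. Flcn read 9.55 and 9.72 against 9.96 and 10.04, a difference of 0.36 (limma adjusted p = 0.458), against 0.07 and 0.09 on its 2 further probe sets. The names of the brightest Fnip1 and Flcn probe sets mark probes that may bind other transcripts. Without such probe sets Fnip1 differed by 0.46 and Flcn by 0.07. Mios, of the GATOR2 complex, differed by 0.28 (limma adjusted p = 0.466) and by 0.02 on its other probe set.

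The TSC and energy branch holds AMPK, which restrains mTORC1 when energy is short. The median of its 11 genes was 0.10, with 7 higher and 4 lower. It was 0.19 without wild-type replicate 1, 0.17 with arrays shifted to one median and 0.04 with probe sets averaged per gene. AMPK subunit genes differed in both directions. Prkaa2, the main catalytic subunit gene of heart muscle, read 11.43 and 11.44 in wild-type and 11.15 and 11.09 in knock-in hearts. Both knock-in arrays were lower, by -0.32 (limma adjusted p = 0.458), against -0.01 and 0.02 on its 2 further probe sets. Prkag2, a regulatory subunit gene, read 7.78 and 7.79 against 8.10 and 8.21, a difference of 0.37 (limma adjusted p = 0.458), with other probe sets between -0.07 and 0.54. The name of this Prkag2 probe set marks probes that may bind other transcripts, and without such probe sets the gene differed by 0.43. Tbc1d7, the third subunit of the TSC complex, differed by 0.28 (limma adjusted p = 0.459) and by -0.30 on its other probe set.

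Among 18 measured effectors and translation factors, the median was 0.01 (its sign turned in 4 of 12 settings), with 10 higher and 8 lower, and 0 had an unadjusted p under 0.05 in either direction, beside 5.45% higher and 4.76% lower among all genes. The smallest p belonged to Eef2k, the kinase that restrains elongation, at 0.28 (limma adjusted p = 0.513). Without knock-in replicate 2 it differed by 0.07 and without knock-in replicate 1 by 0.49, and 2 further Eef2k probe sets ranged from -0.37 to 0.18. The name of the brightest Eef2k probe set marks probes that may bind other transcripts. The ribosomal protein gene Rps6, whose product is the classical readout of mTORC1 signalling when phosphorylated, differed by -0.30 (limma adjusted p = 0.543), and by -0.03 without knock-in replicate 2. This probe set read only 7.18 and 7.32 in wild-type and 7.22 and 6.68 in knock-in hearts, and the other Rps6 probe set differed by -0.02. Eif4e, the cap-binding factor held back by Eif4ebp1, differed by 0.16 (limma adjusted p = 0.566), and 3 further probe sets ranged from -0.06 to 0.41.

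**Figure D4:**
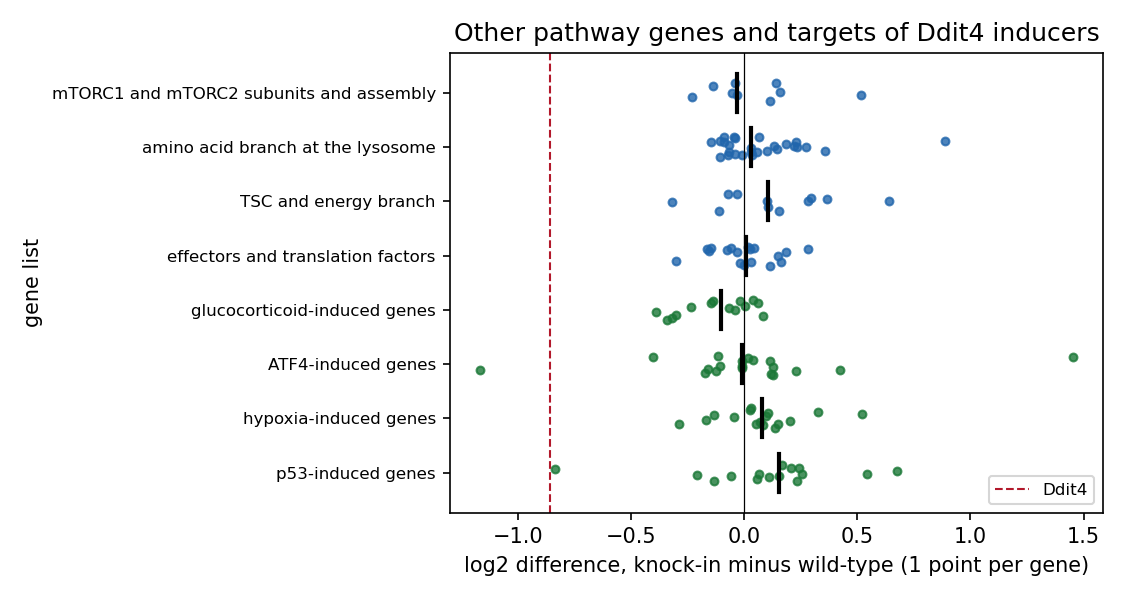
Log2 difference, knock-in minus wild-type, of each gene of the lists of other pathway genes (blue) and of targets of pathways known to induce Ddit4 (green); black bars are list medians and the dashed line is Ddit4. List medians lie between -0.10 and 0.15, and Chac1 (-1.17) is the one gene left of the Ddit4 line.

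Targets of 4 signals known to induce Ddit4 were read in the same way. Of 64 measured genes 0 passed the test (limma), and at an unadjusted p under 0.05 5 were higher and 6 lower. Among all genes 0.011% passed, and 5.45% were higher and 4.76% lower at that unadjusted p. Both counts are somewhat larger as shares of the 64, and they are not read as a result about these genes. The 14 glucocorticoid-induced genes split into 4 higher and 10 lower, with a median of -0.10, which was -0.19 without wild-type replicate 1, -0.05 without wild-type replicate 2, -0.04 with arrays shifted to one median and -0.00076 without knock-in replicate 1. Nfkbia differed by -0.39 and Klf9 by -0.32 (limma adjusted p = 0.458 for each), and both knock-in arrays lay below both wild-type arrays. The 4 further Nfkbia probe sets ranged from -0.44 to -0.21 and the 6 of Klf9 from -0.45 to -0.05. The 19 ATF4-induced genes split into 9 higher and 10 lower around a median of -0.01, whose sign turned in 2 of 12 settings. Chac1, which degrades glutathione, read 8.99 and 8.87 in wild-type and 7.70 and 7.84 in knock-in hearts, a difference of -1.17 (limma adjusted p = 0.153). Cth, which makes cysteine, read 5.55 and 5.19 in wild-type hearts, below the array medians, and 6.98 and 6.67 in knock-in hearts. It was higher on both knock-in arrays without passing the test (limma adjusted p = 0.198).

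The median of 16 hypoxia-induced genes was 0.08, and 12 lay above 0. That median was 0.14 with arrays shifted to one median, 0.0099 after quantile normalisation and 0.012 after cyclic loess. Ankrd37 differed by 0.52 and Higd1a by 0.33, both higher on both knock-in arrays (limma adjusted p = 0.458 for each). The 2 further Higd1a probe sets differed by 0.17 and 0.30, and Ankrd37 had no other. Among 15 p53-induced genes the median was 0.15, and 11 lay above 0; it was 0.09 after quantile normalisation or cyclic loess, 0.10 without knock-in replicate 2 and 0.07 with probe sets averaged per gene. Cdkn1a differed by -0.83 (limma adjusted p = 0.283) and Gadd45a, a stress gene of growth arrest, by 0.68 in the other direction (limma adjusted p = 0.345). The other Cdkn1a probe set differed by -0.68, and Gadd45a had no other.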

How the data were processed

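The deposited values are log2 RMA signals, 1 per probe set and array, which the authors made, per the submitters' processing notes, with Affymetrix Expression Console (version not stated). RMA corrects background, brings arrays to a common distribution and summarises probes. The wild-type scans were also normalised for another comparison, per the labels; those values were not used here. Of 45101 probe sets, 64 controls were left out. Symbols came from the array annotation, where 34945 probe sets had 1 symbol, 932 several and 9160 none listed; names were updated by gene ID for 18032 genes (GRCm38.p6 table). The brightest probe set by its mean over the 4 arrays represents a gene.

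Fits used limma 3.58.1 under R 4.3.3 (no covariate, 2 residual and 4.54 prior degrees of freedom), with Benjamini-Hochberg adjustment over 45037 probe sets; the fit was tested on simulated data. With 2 arrays a group an exact permutation test cannot go below p = 0.333. Precision is limited by the number of arrays, with a median standard error of 0.12. Tables and plots used numpy 2.4.6, pandas 2.3.3 and matplotlib 3.10.9 (Python 3.11.15).

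Members and lists were chosen with earlier results of these data known. Named are all members, up to 3 genes per pathway list and 2 per list of inducer targets (smallest limma p, mean log2 of at least 6), and the 5 genes most like Ddit4. Alternatives covered the prior variance, normalisation, dim and cross-hybridising probe sets, each array left out, the replicate number as a block and the mean of a gene's probe sets.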

Additional observations from a re-analysis of the deposited data

How the results depend on the processing

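The 3 probe sets called over all probe sets became 8 with limma-trend and robust eBayes, 11 with arrays shifted to one median and 1 among probe sets with a mean log2 of at least 7, and between 0 and 2 with 1 array left out. Without knock-in replicate 1 the count was 0. The median of the other pathway genes was 0.092 with arrays shifted to one median, -0.033 after quantile normalisation and -0.032 after cyclic loess, and 0 genes of these lists were called (limma) in any of 12 settings. Among targets of Ddit4 inducers, 1 gene, Chac1, was called when probe sets were averaged per gene (limma adjusted p = 0.0319). Averaging tests fewer features and also changes the variances, and the part of each was not tested. Its limma adjusted p was 0.143 among probe sets with a mean log2 of at least 7 and 0.403 with the replicate block. Without knock-in replicate 1 the Chac1 difference was -1.09. With 1 array left out, the lone array of that genotype is assumed to vary like the other genotype. Averaging also turned the signs of Rictor, Tti2 and Tbc1d7, to -0.05, -0.14 and -0.01. Ddit4 lay between -0.99 and -0.72 in all 12 alternatives. Several of these could not move it, as the gene has 1 probe set. Limma-trend, the replicate block, both filters on probe sets and averaging per gene all return -0.86. The labels give same-numbered arrays nothing in common but the number. Deviations of these arrays from the group means correlated at 0.0848 across probe sets, which cannot settle whether they were paired. With the replicate number as a block 4 probe sets were called in place of 3. With 2 arrays a genotype and 1 probe set for Ddit4, small differences cannot be resolved.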
